A study of Mus musculus with 9 samples.

Results

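Hox genes encode homeodomain transcription factors that set position along the body axis. In the mouse they lie in 4 clusters named Hoxa to Hoxd, and their members were found here by symbol in GENCODE mouse release 21 (GRCm38): Hoxa, Hoxb, Hoxc or Hoxd followed by a number, protein coding. The rule gave 39 genes, all present among the 43629 genes of the deposited count tables. Hoxa held 11 of them on the minus strand (chr6:52155590-52260880), Hoxb 10 (chr11:96194316-96368256), Hoxc 9 (chr15:102921103-103036852) and Hoxd 9 (chr2:74668310-74765142), the last 3 on the plus strand.

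Within a cluster the genes are arranged in the order in which they are used along the body, with low numbers for the anterior end and high numbers for the posterior end. Members with the same number in different clusters are paralogues. In the developing heart, anterior members such as Hoxb1 and Hoxa3 are known from the progenitor cells of the outflow tract and venous pole, and retinoic acid is a known inducer of the low-numbered genes. Hox clusters are a classical target of repression by Polycomb and activation by Trithorax complexes. Dnmt3a and Dnmt3b encode the enzymes that place new methyl groups on DNA, mostly at CpG, a C followed by a G.

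The cells were ventricular cells of CD-1 mouse embryos at embryonic day 13.5, pooled by litter, depleted of cells that attached quickly and cultured for 48 h. They received 0.012 pmol of siRNA, either 4 mixed siRNAs to Dnmt3a, 4 mixed siRNAs to Dnmt3b or a negative control, and no untransfected cells were part of the comparison. Cells were collected 72 h after transfection and sorted magnetically for VCAM1, a protein found on embryonic cardiomyocytes. Each group, called DNMT3a siRNA, DNMT3b siRNA and control here, had 3 poly(A) RNA libraries with the numbers 1 to 3. Whether a group's libraries stem from different litters or cultures is not in the labels, so the p-values reflect the spread between libraries, which may be technical.

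Each library had 27852412 to 35896018 reads in genes. Dnmt3a stood at 18.0% of the control mean after DNMT3a siRNA, and Dnmt3b at 39.5% after DNMT3b siRNA. Control 2 and DNMT3a 2 stood apart in their groups: chi-square per degree of freedom against the other control libraries was 65.0 and 59.3, against 31.5 between these others, and 52.3 and 59.9 for DNMT3a 2, against 22. DNMT3b 1 was the farthest in its group, at 28.3 and 24.4 against 6.94. Levels are given as CPM, counts scaled to a common library total after TMM normalisation. On this scale the control mean was 259 for Dnmt3a and 4.30 for Dnmt3b, so the 2 targets started from unlike levels. The summed level of 10 cardiomyocyte markers differed between the groups, from 1919 to 2487 CPM in control, 4165 to 5039 after DNMT3a siRNA and 5338 to 6516 after DNMT3b siRNA, and all 10 were detected. The 8 fibroblast markers summed to 37415 to 57026, 38333 to 42174 and 36202 to 43000, and the 8 epicardial markers to 2021 to 2424, 1344 to 1849 and 1383 to 1972. In bulk samples fewer cells of a type and less RNA per cell cannot be told apart.

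The stretches of DNA below show what the members' promoters look like around the base pair that the DNMT3 enzymes modify. Each is 200 bases, from 250 to 51 bases before the RefSeq start (GRCm38.p6), on the gene's strand, 5′ to 3′, with every CpG in capitals. Hoxd8 and Hoxd9 are shown because they were lower after DNMT3a siRNA, and Hoxa5 and Hoxb4 as members of the clusters that had higher means there.
Hoxd8: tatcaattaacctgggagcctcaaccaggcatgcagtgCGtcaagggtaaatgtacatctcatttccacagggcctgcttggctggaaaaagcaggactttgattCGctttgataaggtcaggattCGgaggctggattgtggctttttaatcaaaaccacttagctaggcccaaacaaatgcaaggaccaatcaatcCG
Hoxd9: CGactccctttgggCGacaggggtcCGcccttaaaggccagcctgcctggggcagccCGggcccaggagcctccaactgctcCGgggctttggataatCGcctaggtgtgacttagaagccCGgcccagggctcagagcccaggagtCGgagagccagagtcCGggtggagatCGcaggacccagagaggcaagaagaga
Hoxa5: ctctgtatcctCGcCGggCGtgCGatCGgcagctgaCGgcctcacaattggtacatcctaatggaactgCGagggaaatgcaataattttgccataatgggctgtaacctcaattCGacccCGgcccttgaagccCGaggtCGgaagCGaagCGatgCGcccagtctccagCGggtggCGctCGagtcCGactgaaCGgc
Hoxb4: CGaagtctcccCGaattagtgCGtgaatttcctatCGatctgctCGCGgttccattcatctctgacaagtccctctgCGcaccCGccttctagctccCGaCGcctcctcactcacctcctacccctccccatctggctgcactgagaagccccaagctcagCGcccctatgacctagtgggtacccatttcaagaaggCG

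Those windows lie at chr2:74704365-74704564 (Hoxd8, plus strand), chr2:74697513-74697712 (Hoxd9, plus), chr6:52204638-52204837 (Hoxa5, minus) and chr11:96318017-96318216 (Hoxb4, plus). Hoxd8 had 4 CpG in its window, and 45.8% of the 32841 windows of the same length in the RefSeq table had fewer. Hoxd9 had 10, with 70.7% of windows below it. Hoxb4 had 12, with 75.7% below, and Hoxa5 had 19, with 89.1% below. Over the 24 windows of the 22 members in that table, the number ran from 2 in Hoxd4 and in a Hoxd11 start to 26 in Hoxa13, with a median of 11, beside a median of 4 over all windows. Among the 8 members with a window that could be tested for expression, Hoxa2 had 5, Hoxa3 15, Hoxd1 16 and Hoxd4 2, beside those shown. Hoxd4, Hoxd8, Hoxd9 and Hoxd1, with lower values after DNMT3a siRNA below, had 2, 4, 10 and 16. For Hoxd1 that difference was smaller than its SE. Hoxa2, Hoxb4, Hoxa3 and Hoxa5, with higher values, had 5, 12, 15 and 19. Hoxc13, the only member that passed by edgeR, had no window in that table. A relation between CpG number and direction was not tested. DNA methylation itself was not analysed here.

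Most Hox genes were at the edge of detection. Of the 39, 31 had at least 1 count in some control library, 35 in some DNMT3a siRNA library and 35 in some DNMT3b siRNA library. With at least 10 counts in every library of the group, the numbers were 11, 11 and 12. Hoxa13, a gene of limb ends and the hindgut, had 0 counts in all 9 libraries, where a count of 0 allows up to 0.0836 to 0.111 CPM, depending on the library. Hoxa6, Hoxa11 and Hoxd10 were at 0 in control and DNMT3b siRNA, and had 1 or 2 counts in a library of DNMT3a siRNA. Hoxb13, Hoxc11 and Hoxd11 were at 0 in control, Hoxc12 in control and DNMT3a siRNA, and Hoxc9 and Hoxd13 after DNMT3a siRNA. None of these genes passed 3 counts in any library, so a value of 0 in 1 group was not distinguishable from the others at this depth.

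The genes with enough counts to be tested numbered 13, among them Hoxa2 to Hoxa5, Hoxb2 to Hoxb4, Hoxc13, Hoxd1, Hoxd4, Hoxd8 and Hoxd9. The 26 that could not be tested each had at most 18 counts in any library. Of the 13, 11 belonged to paralogue groups 1 to 8, and the exceptions were Hoxd9 and Hoxc13.

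**Figure D1:**
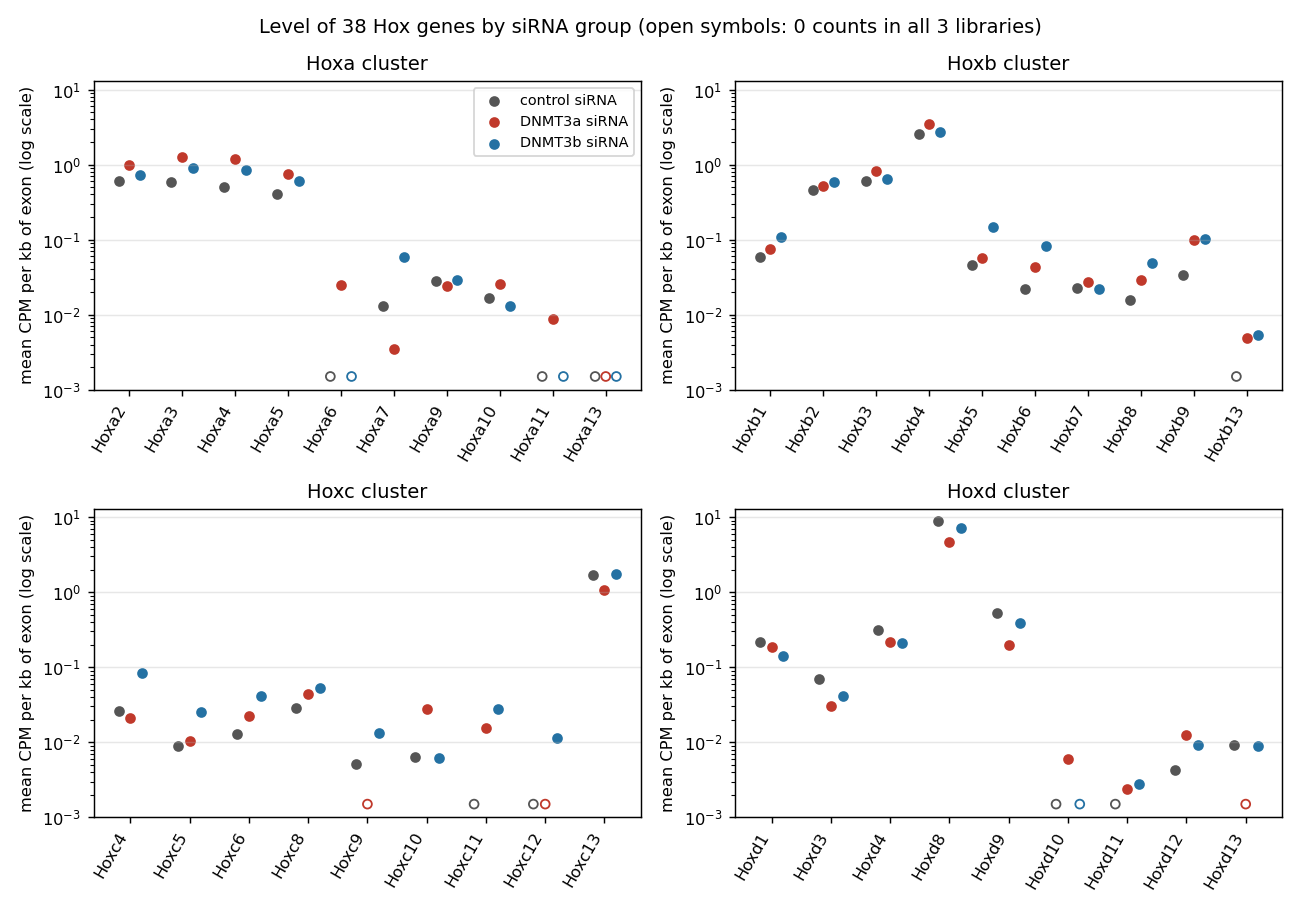
Level of 38 Hox genes as mean TMM-scaled CPM per kilobase of exon over 3 libraries (y axis, log scale), by gene (x axis, in number order) and siRNA group (colour), with genes at 0 in a group drawn as open symbols at the bottom. Hoxd8 was the highest, and Hoxc13 stood alone above its cluster.

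On a scale that can be compared between genes, CPM per kilobase of exon averaged over the 9 libraries, Hoxd8 had the highest level of all members at 6.90. Hoxb4 stood at 2.93, Hoxc13 at 1.52, Hoxa3 at 0.911, Hoxa4 at 0.844 and Hoxa2 at 0.778. Hoxb3 stood at 0.695, Hoxa5 at 0.591, Hoxb2 at 0.522, Hoxd9 at 0.372, Hoxd4 at 0.247 and Hoxd1 at 0.183. In control, Hoxd8 ran from 17.9 to 30.7 CPM and did not overlap Hoxb4, the next, at 4.81 to 7.64. Neighbours lower in the order, such as Hoxa3, Hoxa4 and Hoxa2, did not separate beyond their spread. Hoxc13, known for hair and nail formation, stood apart from its neighbours: Hoxc12, Hoxc11, Hoxc10 and Hoxc9 beside it had at most 4 counts in a library, and it gave 90.2% of the Hoxc counts. Hoxd8 gave 90.0% of the Hoxd counts, Hoxb4 57.2% of the Hoxb counts, and Hoxa3 37.1% of the Hoxa counts.

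Some levels are uncertain because members overlap other genes. Hoxd4 shares 52.3% and Hoxd3 62.8% of its exon bases with other genes, among them each other and Gm28230, and Hoxb3 shares 52.9% with the antisense gene Hoxb3os. Hoxa3 shares 27.1% with other genes, most of it antisense. How the counting treated strand is not given in the sources used here, so reads of a gene and its antisense partner cannot be told apart. Per kilobase of exon that no other gene shares, the level was 1.48 for Hoxb3, 1.25 for Hoxa3, 1.01 for Hoxa4, 0.916 for Hoxa2, 0.718 for Hoxb2 and 0.518 for Hoxd4. On this scale Hoxb3 moved above Hoxa3, Hoxa4 and Hoxa2, Hoxb2 above Hoxa5, and Hoxd4 above Hoxd9. Hoxc13, Hoxd8, Hoxd9, Hoxb4 and Hoxa5 share no exon base with another gene.

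The first comparison asked which Hox genes differ when Dnmt3a is knocked down. Hoxc13 was the only member of the 13 that passed the test: it fell after DNMT3a siRNA. In all, 10.1% of the 16561 genes tested passed in this comparison, and 5.22% passed as lower. Hoxd8 and Hoxd9 were lower without passing, and passed when the library number was kept as a block. All 5 tested Hoxa genes were higher within every library number, by up to 1.23 on the log2 scale in the fit, and none passed.

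Hoxc13 stood at 4.85, 3.93 and 3.92 CPM in control 1, 2 and 3, at 2.50, 2.30 and 3.21 after DNMT3a siRNA, and at 4.30, 4.53 and 4.10 after DNMT3b siRNA. Every DNMT3a siRNA library was below every library of the other groups. Its log2 fold change against control was -0.67 ± 0.18 (SE, n = 3 against 3), 1.59-fold lower, with an adjusted p of 0.0382 by edgeR. With the replicate block the adjusted p was 0.0371. The margin was thin: the call was lost without control 1 (adjusted p = 0.126 by edgeR), control 3 (0.0684), DNMT3a 1 (0.128), DNMT3a 2 (0.100), DNMT3b 1 (0.0532), DNMT3b 2 (0.0672) or DNMT3b 3 (0.0605), without all libraries numbered 2 (0.134), and in a fit of the 2 groups alone (0.0942). Its log2 fold change over the fits with 1 library left out ran from -0.82 to -0.56.

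Hoxd8, which is known from the trunk of the embryo, had 17.9, 30.7 and 23.9 CPM in control 1, 2 and 3, and 7.05, 14.9 and 16.3 after DNMT3a siRNA. The highest DNMT3a siRNA library lay below the lowest control library. It was 1.90-fold lower, with a log2 fold change of -0.92 ± 0.32 (SE) and an adjusted p of 0.111 by edgeR. Within library numbers the log2 ratios were -1.35, -1.05 and -0.56. With the replicate block, which takes a number to shift all 3 groups alike, the log2 fold change was -0.96 ± 0.15 and the adjusted p 0.0020. Hoxd8 was highest in control 2, the library in which the summed Hoxa and Hoxb levels were the lowest of the 9.

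The neighbouring Hoxd9 stood at 0.641, 1.11 and 1.63 CPM in control 1, 2 and 3 and at 0.227, 0.303 and 0.720 after DNMT3a siRNA. DNMT3a 3 lay above control 1, so the groups overlapped by 1 library. The log2 fold change was -1.41 ± 0.49 (SE), 2.66-fold lower, with an adjusted p of 0.0950 by edgeR and 0.0248 with the replicate block. These values rest on 7 to 44 counts per library. Without DNMT3a 3 the log2 fold change was -2.05 and the adjusted p by edgeR 0.0444.

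Hoxd4 and Hoxd1, the other tested Hoxd genes, did not pass either way. Hoxd4 had 0.529, 0.910 and 1.29 CPM in control 1, 2 and 3 and 0.455, 0.848 and 0.622 after DNMT3a siRNA, a log2 fold change of -0.48 ± 0.38 (SE). It was lower within each number, but the groups overlapped. Hoxd1 had 3 to 19 counts per library in these groups and a log2 fold change of -0.21 ± 0.57, which turned to 0.23 without DNMT3a 1.

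**Figure D2:**
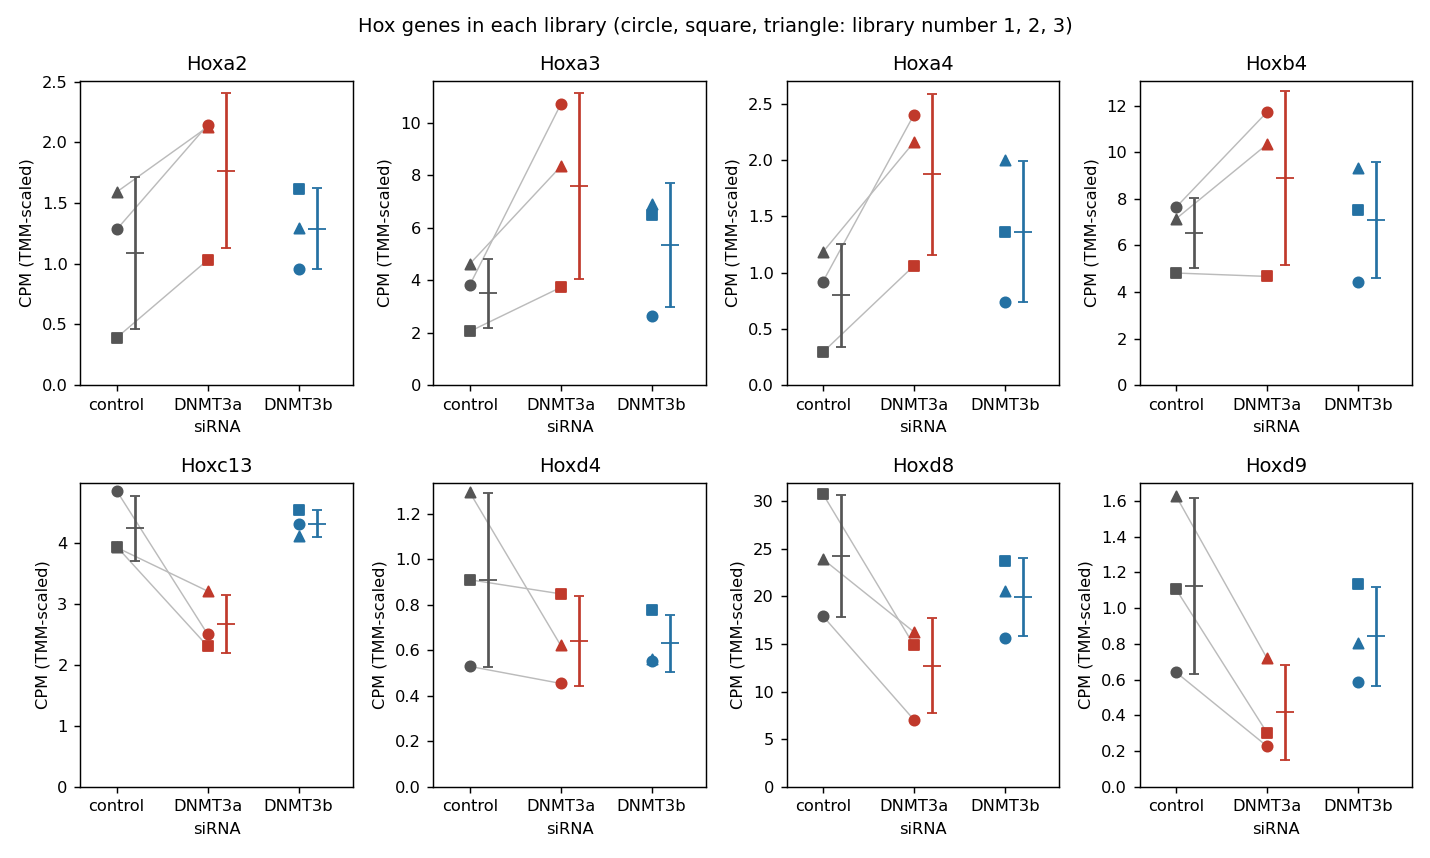
TMM-scaled CPM (y axis) of 8 Hox genes in each library, by siRNA group (x axis), with symbols for the library number, bars for the mean and SD of 3 libraries, and grey lines joining same-numbered control and DNMT3a libraries. Hoxa2, Hoxa3 and Hoxa4 were higher and Hoxc13, Hoxd4, Hoxd8 and Hoxd9 lower along every line, while Hoxb4 was slightly lower in number 2.

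Hoxa3, needed for the third pharyngeal arch and its vessels, had 3.82, 2.05 and 4.62 CPM in control 1, 2 and 3 and 10.7, 3.73 and 8.34 after DNMT3a siRNA. Library 2 was the lowest of both groups, and DNMT3a 2 lay below control 1 and control 3. The log2 fold change was 1.12 ± 0.49 (SE) with an adjusted p of 0.196 by edgeR and 0.195 with the replicate block.

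Hoxa4 had 0.920, 0.293 and 1.18 CPM in control 1, 2 and 3 and 2.40, 1.06 and 2.16 after DNMT3a siRNA. It had the largest log2 fold change of the tested Hoxa genes, 1.23 ± 0.51 (SE), and adjusted p values of 0.163 by edgeR and 0.0643 with the replicate block. Hoxa5 (0.88 ± 0.53) and Hoxa2 (0.70 ± 0.45) had adjusted p values of 0.341 and 0.389 by edgeR. Being higher within all 3 numbers was common: 28.4% of all tested genes were, and 25.1% were lower within all 3.

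The 3 tested Hoxb genes had log2 fold changes of 0.18 to 0.45. Hoxb4, the second most abundant member per kilobase, had 7.64, 4.81 and 7.14 CPM in control 1, 2 and 3 and 11.7, 4.67 and 10.3 after DNMT3a siRNA. It was higher in numbers 1 and 3 and slightly lower in number 2, with a log2 fold change of 0.45 ± 0.37 (SE) and an adjusted p of 0.519 by edgeR.

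Hoxb3 showed the same order, 2.84, 1.98 and 2.92 in control 1, 2 and 3 against 4.12, 1.91 and 4.55 CPM, with a log2 fold change of 0.45 ± 0.33 (SE). Hoxb2, which is best known from the hindbrain, had 1.56, 1.56 and 1.70 against 1.95, 1.42 and 2.09, and a log2 fold change of 0.18 ± 0.27. Neither passed.

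**Figure D3:**
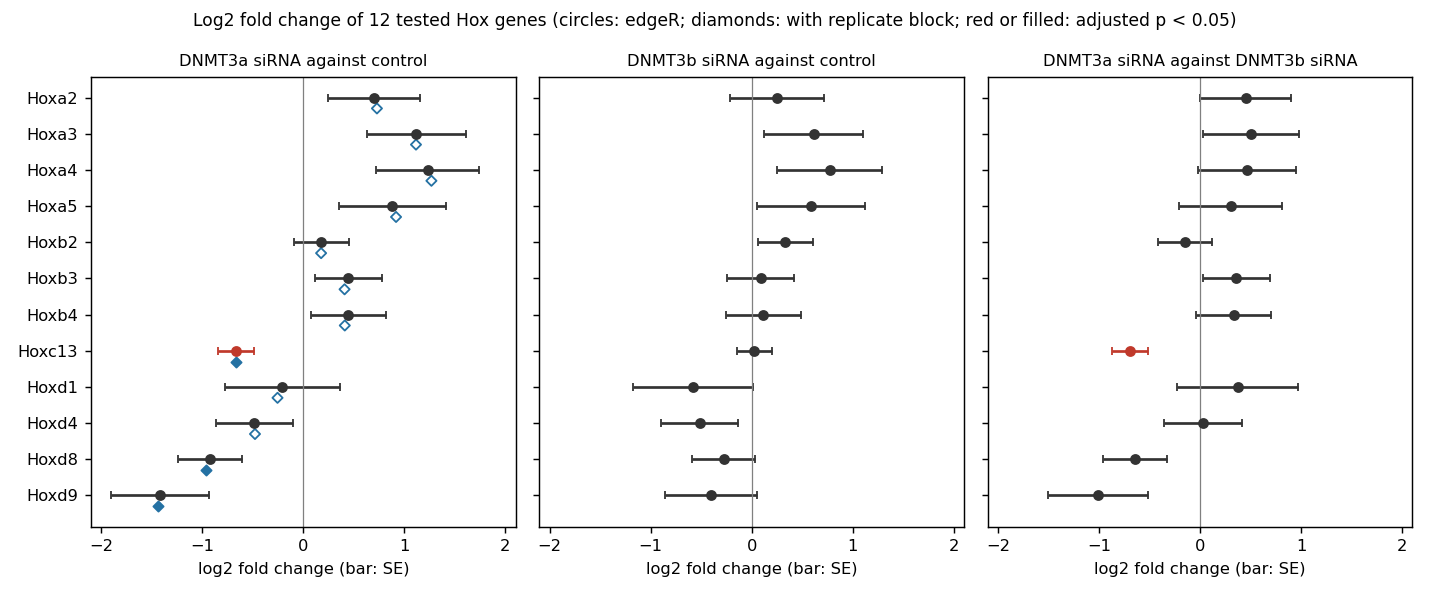
Log2 fold change (x axis, bars are the SE) of 12 tested Hox genes (y axis) in the 3 comparisons, from the fit of all 9 libraries (circles, red where the adjusted p was under 0.05) and, for DNMT3a siRNA against control, from the fit with the replicate block (diamonds, filled where under 0.05). Hoxc13 was past the threshold in both comparisons with DNMT3a siRNA, and Hoxd8 and Hoxd9 only with the block.

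Over the 13 tested genes, 8 log2 fold changes were above 0 and 5 below, with a median of 0.45 beside 0.02 over all genes. Among the 13, 6 had an unadjusted p under 0.05, where 24.9% of all genes did. Hoxc13 and Hoxd8 had groups that did not overlap, both lower, and 12.6% of all genes did so in that direction. With the replicate block, 3 passed, all lower (Hoxc13, Hoxd8 and Hoxd9), against 14.3% of all genes passing and 7.52% passing as lower. DESeq2 called the same 3 genes, where it called 13.8% of genes.

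The next comparison asked the same of Dnmt3b. None of the 13 passed after DNMT3b siRNA by edgeR, 0 had an unadjusted p under 0.05, and DESeq2 called 0, in a comparison where 5.64% of genes passed by edgeR, 21.5% had an unadjusted p under 0.05 and DESeq2 called 10.4%. The log2 fold changes ran from -0.58 in Hoxd1 to 0.77 in Hoxa4. Hoxc13 was at 0.02 ± 0.17 (SE), and Hoxd8 at -0.28 ± 0.31, with 15.6, 23.7 and 20.5 CPM in DNMT3b 1, 2 and 3. A value that does not pass does not show that these genes were alike in both groups.

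The DNMT3b siRNA libraries also varied among themselves. Hoxa3 had 2.64, 6.51 and 6.91 CPM in DNMT3b 1, 2 and 3, and Hoxb4 4.43, 7.51 and 9.32. DNMT3b 1 was the lowest of its group for both, below the lowest control library for Hoxb4 but not for Hoxa3.

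Knockdown against knockdown, 1 of the 13 passed, again Hoxc13. It was lower after DNMT3a siRNA than after DNMT3b siRNA, with a log2 fold change of -0.69 ± 0.18 (SE), 1.62-fold, and an adjusted p of 0.0356 by edgeR, in a comparison where 9.55% of genes passed and 5.08% passed as lower. This call was lost without DNMT3a 1 (adjusted p = 0.132 by edgeR), DNMT3a 2 (0.0837), DNMT3b 1 (0.0784), DNMT3b 2 (0.132) or DNMT3b 3 (0.0954), and without all libraries numbered 2 (0.164). Hoxd8 was at -0.65 ± 0.32 (adjusted p = 0.249 by edgeR) and Hoxd9 at -1.01 ± 0.49 (0.231). The comparisons share their DNMT3a siRNA libraries, so the calls of Hoxc13 are not independent of each other.

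Summed over each cluster, the mean after DNMT3a siRNA was above control for Hoxa and Hoxb and below it for Hoxc and Hoxd. The Hoxa sum was 12.2, 6.24 and 13.8 CPM in control 1, 2 and 3, 25.3, 11.3 and 21.9 after DNMT3a siRNA, and 9.25, 15.4 and 17.1 after DNMT3b siRNA. The ratio of DNMT3a siRNA to control within each number was 2.07, 1.81 and 1.59, but DNMT3a 2 lay below control 1 and control 3, so the groups overlapped. As means over 3 libraries, the Hoxa sum was 10.7 ± 3.97 (SD) in control, 19.5 ± 7.30 after DNMT3a siRNA and 13.9 ± 4.12 after DNMT3b siRNA.

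**Figure D4:**
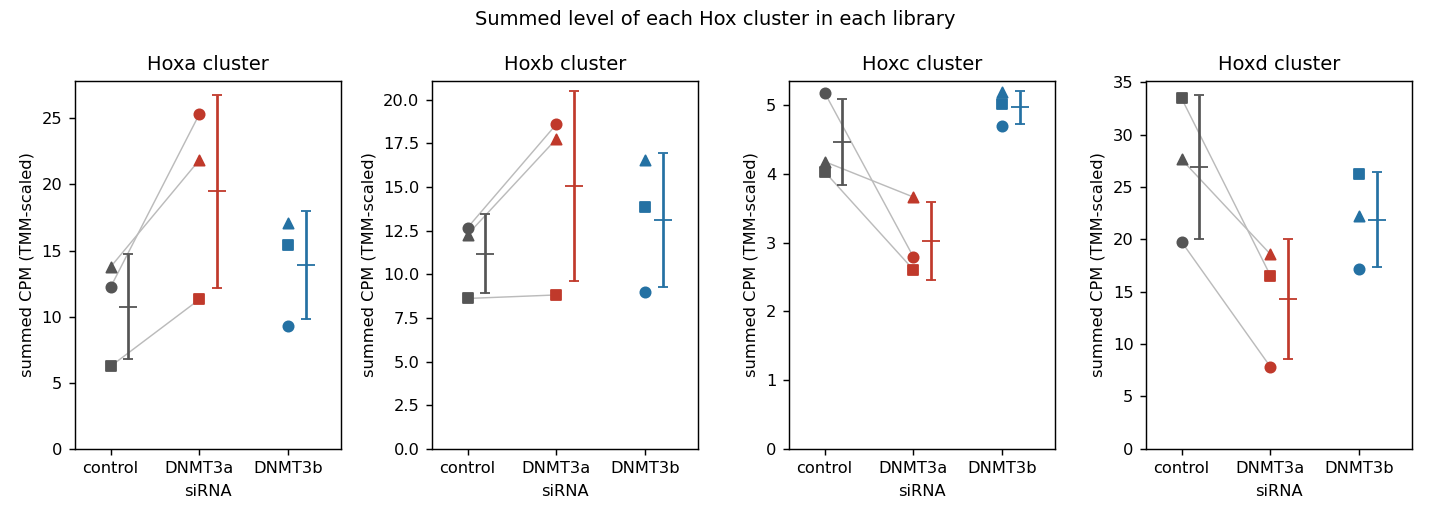
Summed TMM-scaled CPM (y axis) of the members of each cluster in each library, by siRNA group (x axis), with circles, squares and triangles for libraries 1, 2 and 3, bars for the mean and SD, and grey lines joining same-numbered control and DNMT3a libraries. The Hoxc and Hoxd sums after DNMT3a siRNA lay below all control libraries.

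The Hoxd sum went the other way, with 19.8, 33.5 and 27.6 CPM in control 1, 2 and 3, 7.83, 16.5 and 18.6 after DNMT3a siRNA and 17.2, 26.3 and 22.3 after DNMT3b siRNA. Its within-number ratios to control were 0.396, 0.494 and 0.672 for DNMT3a siRNA, and 0.868, 0.785 and 0.805 for DNMT3b siRNA. The DNMT3a siRNA libraries lay below the control libraries, and overlapped those of DNMT3b siRNA. The Hoxd members other than Hoxd8 summed to 2.77 ± 0.949 (SD) in control and 1.59 ± 0.775 after DNMT3a siRNA.

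For Hoxc, the sum was nearly Hoxc13 alone, at 4.47 ± 0.626 (SD) in control, 3.02 ± 0.565 after DNMT3a siRNA and 4.97 ± 0.246 after DNMT3b siRNA. The other 8 members together gave 0.230 ± 0.121, 0.351 ± 0.0928 and 0.657 ± 0.374 CPM. These rest on 12, 3 and 7 counts in control 1, 2 and 3 and 9, 10 and 14 after DNMT3a siRNA. On these few counts the log2 ratio of DNMT3a siRNA to control means was 0.61. The groups overlapped, and the ratio within number 1 was 0.874. The Hoxb sum was 11.2 ± 2.24 in control, 15.1 ± 5.42 after DNMT3a siRNA and 13.1 ± 3.84 after DNMT3b siRNA, with overlapping groups. No test was run on the sums.

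Over all 39 genes the sums were 53.4 ± 4.09 (SD) CPM in control, 51.9 ± 11.5 after DNMT3a siRNA and 53.9 ± 12.0 after DNMT3b siRNA, with overlapping groups. Hoxd genes gave 39.6%, 63.9% and 47.8% of the Hox counts in control 1, 2 and 3, and 14.3%, 42.1% and 30.0% after DNMT3a siRNA. Hoxa genes gave 24.5%, 11.9% and 23.8%, and then 46.4%, 28.8% and 35.3%. After DNMT3b siRNA, Hoxd gave 42.8%, 43.4% and 36.5%, and Hoxa 23.1%, 25.4% and 28.0%. Control and DNMT3a siRNA did not overlap in the Hoxa share, while DNMT3a 2 lay above control 1 in the Hoxd share. The shares are parts of the same total, so a lower Hoxd share raises the others, and the Hoxa sums themselves overlapped.

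By position along the cluster, the 16 members of paralogue groups 9 to 13 summed to 5.71 ± 0.221 (SD) CPM in control, 3.73 ± 0.828 after DNMT3a siRNA and 5.80 ± 0.260 after DNMT3b siRNA. All DNMT3a siRNA libraries lay below the others, and 73.9% of these counts were Hoxc13. The 8 members of groups 1 to 3 summed to 14.0 ± 3.80, 21.9 ± 7.62 and 16.5 ± 4.65, and the 15 of groups 4 to 8 to 33.7 ± 4.48, 26.2 ± 4.75 and 31.6 ± 7.09, both with overlap. Directions differed between clusters within a class. In groups 9 to 13 the ratio of DNMT3a siRNA to control means was 0.647 in Hoxc and 0.405 in Hoxd. It was 1.15 in Hoxa and 3.06 in Hoxb, at means of at most 0.266 CPM. In groups 4 to 8 it was 2.08 in Hoxa, 1.37 in Hoxb, 1.29 in Hoxc and 0.533 in Hoxd.

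Values of other cell types moved beside these. The 8 macrophage markers summed to 16.5 to 44.0 CPM in control, 7.53 to 14.4 after DNMT3a siRNA and 16.8 to 40.2 after DNMT3b siRNA. Of them, 3 fell after DNMT3a siRNA, or 8 with the replicate block, where 14.3% of all genes passed with it. Of the epicardial markers, 3 fell and 1 rose after DNMT3a siRNA, and of the fibroblast markers 3 fell. After DNMT3b siRNA, 1 epicardial and 2 fibroblast markers fell and 0 rose, and 0 macrophage markers passed by edgeR without a block. Median log2 fold changes of the epicardial markers were -0.44 after DNMT3a siRNA and -0.42 after DNMT3b siRNA. Those of the fibroblast markers were -0.36 and -0.29. Of the 10 cardiomyocyte markers, 8 rose after DNMT3a siRNA and 9 after DNMT3b siRNA. Of all genes tested, 10.1% passed after DNMT3a siRNA and 5.64% after DNMT3b siRNA.

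The 8 endothelial markers summed to 77.2 to 106 CPM in control, 65.9 to 107 after DNMT3a siRNA and 126 to 139 after DNMT3b siRNA, so the last group lay above both others. Of these markers, Kdr rose after DNMT3b siRNA by 1.02 ± 0.23 (SE) on the log2 scale (adjusted p = 0.0276 by edgeR). None passed between the knockdowns by edgeR, where 3 had an unadjusted p under 0.05 and DESeq2 called 0. With the replicate block 5 were lower after DNMT3a siRNA. Library numbers paired the samples weakly at most in that comparison. Same-number r was 0.161, 0.0776 and 0.0414, beside -0.125 to 0.078 for different numbers. The share of all genes passing with the block there is not given here. The 8 smooth muscle and pericyte markers summed to 5677 to 8363, 8002 to 9161 and 8177 to 9743 CPM in the same order of groups. None of them passed by edgeR against control. After DNMT3a siRNA 2 had an unadjusted p under 0.05 and DESeq2 called 1, beside 24.9% and 13.8% of all genes. After DNMT3b siRNA 4 had an unadjusted p under 0.05 and DESeq2 called 1, beside 21.5% and 10.4% of all genes.

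The 8 neural crest and Schwann cell markers summed to 74.1 to 133 CPM in control, 108 to 135 after DNMT3a siRNA and 46.8 to 68.7 after DNMT3b siRNA, and the last group lay below both others. Most of this sum was Tubb3, a tubulin gene of neurons, which was higher after DNMT3a siRNA than after DNMT3b siRNA by 1.20 ± 0.25 (SE) on the log2 scale (adjusted p = 0.0224 by edgeR). Of the 8, 4 had under 10 counts in every library, among them Sox10 with a mean of at most 0.124 CPM in any group. The part of any of these cell type differences in the Hox values was not tested.

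Hox proteins bind DNA with PBX and MEIS cofactors. Of 9 such cofactor genes, none passed after DNMT3a siRNA by edgeR, and DESeq2 called 1 (lower), where it called 13.8% of genes. An unadjusted p under 0.05 was found for 6 (4 higher and 2 lower), where 24.9% of all genes had one. Pbx2 rose after DNMT3b siRNA, by 0.48 ± 0.11 (SE) on the log2 scale (adjusted p = 0.0259 by edgeR). Between the knockdowns, Pbx2 was lower after DNMT3a siRNA by a log2 fold change of -0.69 ± 0.11 (0.00431) and Meis2 higher by 0.41 ± 0.08 (0.0140). Of all genes, 5.64% passed after DNMT3b siRNA by edgeR and 9.55% between the knockdowns.

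Of 32 Polycomb and Trithorax genes, 3 rose and none fell after DNMT3a siRNA, a share near the 10.1% of all genes that passed. Jarid2, a cofactor of the complex that methylates histone H3 at lysine 27, rose from 34.9 ± 4.30 (SD) to 55.9 ± 5.35 CPM, a log2 fold change of 0.68 ± 0.10 (SE) with an adjusted p of 0.00276 by edgeR. Ring1, a subunit of the complex that ubiquitinates histone H2A, rose by 0.56 ± 0.11 (0.0109), and Phc1, of the same complex, by 0.29 ± 0.08 (0.0459). Jarid2 fell after DNMT3b siRNA, with a log2 fold change of -0.47 ± 0.11 (adjusted p = 0.0256 by edgeR). The median log2 fold change of the list after DNMT3a siRNA was 0.09, beside 0.02 over all genes.

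In the retinoic acid pathway, 14 of 18 listed genes could be tested, and 4 fell while none rose after DNMT3a siRNA, where 10.1% of all genes passed and 5.22% passed as lower. Aldh1a2, which makes retinoic acid and also counts as an epicardial marker, fell from 71.9 ± 13.5 (SD) to 25.0 ± 6.47 CPM, a log2 fold change of -1.52 ± 0.18 (SE) with an adjusted p of 0.00091 by edgeR. Crabp2, which carries retinoic acid to its receptors, had a log2 fold change of -2.06 ± 0.38 (0.00735), and the receptor gene Rarg -0.84 ± 0.13 (0.00355). After DNMT3b siRNA 1 gene of the list passed, Aldh1a1, which fell with a log2 fold change of -0.75 ± 0.16 (adjusted p = 0.0248 by edgeR).

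Most genes next to the clusters did not pass. Of 40 protein-coding neighbours, 34 could be tested, and 1 of them, Chn1 beyond the Hoxd cluster, rose after DNMT3a siRNA by 0.53 ± 0.13 (SE) on the log2 scale (adjusted p = 0.0246 by edgeR). Of all genes, 10.1% passed in that comparison, and 5.64% after DNMT3b siRNA. With the replicate block 4 neighbours passed, 3 higher and 1 lower, where 14.3% of all genes passed with it. After DNMT3b siRNA, Atp5g3 rose by 0.52 ± 0.12 (0.0247) and Lnpk, the gene next to Evx2, had a log2 fold change of -0.41 ± 0.10 (0.0320). Evx1 and Evx2, the homeobox genes that adjoin Hoxa13 and Hoxd13, had at most 6 and 3 counts in a library.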

How the data were processed

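RNA of 9 libraries was analysed from read count tables, 1 per library. The authors deposited whole-number counts per Ensembl gene, not normalised, and the submitters' processing notes name FastQC, TopHat2, HTSeq and the mm10/GRCm38 build, with no roles or versions. Neither the annotation release nor the strand setting is given in the sources used here. Summary lines held 49.2% to 56.2% of each table and were left out. They include reads with several matches (36.6% to 42.5%) and reads that fit more than 1 gene (1.92% to 2.45%), which the overlapping Hox genes lose.

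Symbols, positions and exon lengths came from GENCODE mouse release 21 (GRCm38), with 42548 identifiers matched, and promoter windows from RefSeq (GRCm38.p6). edgeR's filterByExpr (minimum count 10, total 15) kept 16561 genes. All 9 libraries, TMM-scaled, were fitted together by quasi-likelihood with group as the single term (edgeR 4.0.16, R 4.3.3, robust, 6 residual degrees of freedom), two-sided, with Benjamini-Hochberg adjustment over all genes and a threshold of 0.05. The procedure was also run on counts simulated for DNMT3a siRNA against control. These were drawn without a library-number effect, so that run does not bear on the replicate block. DESeq2 1.42.0, 2 other scalings, 2 other filters, a fit of 2 groups, a replicate block and leaving out each library were alternatives, and leaving out all libraries numbered 2 was added after seeing the data. No replicate pair agreed within sampling noise.

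Deviations from the group means correlated between control and DNMT3a siRNA libraries that share a number (r = 0.434, 0.513 and 0.459 over genes). This comparison is read as paired on that ground, as the meaning of the numbers is not in the labels. The replicate block was fitted over all 9 libraries, DNMT3b siRNA included, with 4 residual degrees of freedom. It takes a number to shift all 3 groups alike, and its calls rest on that. Values were given in every library for members that passed, the 3 of each cluster with the highest level per kilobase and those with an unadjusted p under 0.01. The values of other tested members are given too, chosen after their values were seen. In each gene list up to 4 changed genes were named. A few genes that these rules would name are not reported here, although they stay in the tests, counts and sums. Members and lists were chosen with earlier results of these data known. Intervals for a count of 0 use 3 counts and cover counting error only.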

Additional observations from a re-analysis of the deposited data

How the results depend on the processing

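The number of Hox genes changed after DNMT3a siRNA against control was 1 by edgeR, 2 with no filter on low counts, 3 with DESeq2, 3 with the replicate block, and 0 in the fit of 2 groups and without all libraries numbered 2. It ran from 0 to 2 when 1 library was left out. Against DNMT3b siRNA it was 1, ran from 0 to 1 with 1 library left out, and was 2 with the replicate block, which added Hoxd8 (adjusted p = 0.0115 by edgeR). Without DNMT3a 2, and without all libraries numbered 2, the count of 1 was of a gene higher after DNMT3a siRNA, as Hoxc13 did not pass there. Library numbers paired the samples weakly at most in the comparisons with DNMT3b siRNA. Against control, same-number r was 0.212, 0.101 and 0.0334, beside -0.156 to 0.105 for different numbers. Against DNMT3a siRNA it was 0.161, 0.0776 and 0.0414, beside -0.125 to 0.078. The block changed no other call of a Hox gene in these comparisons. The adjusted p of Hoxc13 over its 17 alternatives ran from 0.0092 to 0.134 against control, with 8 under the threshold, and from 0.0090 to 0.164 against DNMT3b siRNA, with 11 under it. The count after DNMT3b siRNA against control was 0 in all 17 alternatives. Without its member of most counts the log2 ratio of the Hoxc sum was 0.61 for DNMT3a siRNA and 1.51 for DNMT3b siRNA, both against control. These ratios rest on 3 to 31 counts per library. The cause of these shifts was not tested.

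Log2 fold changes that turned sign were all of genes that did not pass in the comparison concerned. Without all libraries numbered 2, the value was -0.36 in Hoxa2, -0.12 in Hoxb3, -0.12 in Hoxb4 and -0.077 in Hoxc13 for DNMT3b siRNA against control, and Hoxb2 0.20 and Hoxd4 -0.049 for DNMT3a siRNA against DNMT3b siRNA. With 1 library left out, the log2 fold changes for DNMT3b siRNA against control ran from -0.15 to 0.60 in Hoxa2, -0.13 to 0.29 in Hoxb3, -0.15 to 0.36 in Hoxb4 and -0.031 to 0.13 in Hoxc13. For DNMT3a siRNA against DNMT3b siRNA they ran from -0.39 to 0.049 in Hoxb2, -0.30 to 0.81 in Hoxd1 and -0.23 to 0.22 in Hoxd4, and for DNMT3a siRNA against control from -0.88 to 0.23 in Hoxd1. A gene with few counts, such as Hoxd1 with 3 to 19 per library, cannot be read to a firm fold change at this depth.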

Other observations

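Noncoding genes inside the clusters, taken with Hottip and Halr1 outside Hoxa, were mostly low. Of these 44 genes, 19 had 0 counts in every library, 34 (these included) had under 10 in every library, and 7 could be tested. Many of those at 0 were short entries annotated as miRNA or misc_RNA, and the libraries were of poly(A) RNA. None of the 7 passed in any of the 3 comparisons by edgeR without a block or by DESeq2. Of the 7, 1 had an unadjusted p under 0.05 after DNMT3a siRNA, 0 after DNMT3b siRNA and 1 between the knockdowns. Of all genes, 24.9% had one after DNMT3a siRNA and 21.5% after DNMT3b siRNA. Hotairm1, which lies inside the Hoxa cluster on its other strand, had means of 1.71, 1.91 and 2.16 CPM in control, DNMT3a siRNA and DNMT3b siRNA. Hoxaas2 had 1.14, 1.37 and 1.49. Hoxd3os1, antisense within Hoxd, had 1.09, 0.567 and 1.25. With the replicate block it passed as lower after DNMT3a siRNA than after DNMT3b siRNA (adjusted p = 0.0242 by edgeR, against 0.102 without the block). Library numbers paired the samples weakly at most in that comparison. Hotair and Hottip, long RNAs of the posterior Hoxc and Hoxa ends, had at most 3 and 1 counts in a library. The most abundant of the 44 was Gm11539 inside the Hoxb cluster, with means of 22.1, 21.7 and 23.8 CPM. It is annotated as a processed pseudogene of 557 exon bases, and where its reads come from was not tested.

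Between the knockdowns, 3 of the 34 tested neighbours of the clusters were higher and 1 lower after DNMT3a siRNA, a share near the 9.55% of all genes that passed in this comparison. Hibadh beside Hoxa had a log2 fold change of -0.41 ± 0.09 (SE, adjusted p = 0.0163 by edgeR), Smug1 beside Hoxc 0.43 ± 0.09 (0.0131), Ube2z beside Hoxb 0.26 ± 0.07 (0.0415), and Lnpk beside Hoxd 0.36 ± 0.10 (0.0419).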
